A study of Homo sapiens with 6 samples.

Results

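The alpha-arrestins TXNIP, ARRDC1, ARRDC2, ARRDC3 and ARRDC4 and the glucose-sensing transcription factors MLXIP and MLX were followed in a knockdown of CRIP1, a small LIM domain protein, in a myeloma cell line. These 7 genes were selected by gene symbol out of 17918 genes in the table, and all 7 were present. The set was proposed with the knockdown-over-scramble differences of an earlier analysis of the same libraries known. Levels and fold changes of the 7 genes in that contrast are therefore given as a description, without p-values. The study sequenced RNA from KMS11, an established human myeloma line (myeloma arises from plasma cells, which secrete antibody). Cells of the 3 shCRIP1 libraries held a hairpin RNA directed at CRIP1 (genotype label CRIP1 knockdown). Cells of the 3 shScramble libraries held a scrambled hairpin (genotype label WT), and both groups were grown in the same medium with no further treatment. The labels do not say whether each hairpin line was a clone or a pool, whether more than 1 hairpin was used, or whether replicates came from separate cultures. The p-values below therefore cover the spread among these 6 libraries, which may be technical.

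Alpha-arrestins are cytoplasmic adaptors with an arrestin fold. Most carry PPxY motifs that bind ubiquitin ligases of the NEDD4 family, and through them direct membrane proteins such as glucose transporters and receptors to endocytosis. TXNIP also binds thioredoxin, the disulfide-reducing protein that gives it its name, and limits glucose uptake. MondoA, the protein of MLXIP, pairs with MLX, enters the nucleus when glucose 6-phosphate is high, and binds carbohydrate response elements (a pair of E-box-like sites set 5 bases apart). TXNIP and ARRDC4 are its best-known targets.

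The promoters of TXNIP, ARRDC4 and MLX are shown because they hold different E-box-like elements, the kind of site that MondoA and MLX recognise. RefSeq windows of 300 bases (GRCh38.p14), 250 before and 50 after each listed start, were found for 7 of the 7 genes, in 10 windows. They were searched on both strands for CACGTG (an E-box), for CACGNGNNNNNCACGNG (a pair of E-box-like sites with a 5-base spacer, called the tandem element here) and for CCAAT. A tandem can contain an E-box, but no matches overlapped in these genes. Capitals mark these matches, ATTGG being CCAAT on the other strand, and sequences run 5′ to 3′ on the strand of the gene.
TXNIP (chr1:145996639-145996739, minus strand): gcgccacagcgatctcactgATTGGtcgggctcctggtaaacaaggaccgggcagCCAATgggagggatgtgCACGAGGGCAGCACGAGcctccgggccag
ARRDC4 (chr15:97960483-97960648, plus strand): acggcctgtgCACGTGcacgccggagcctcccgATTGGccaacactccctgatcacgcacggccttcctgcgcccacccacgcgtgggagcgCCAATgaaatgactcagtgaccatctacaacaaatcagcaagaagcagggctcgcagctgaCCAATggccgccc
MLX (chr17:42567025-42567064, plus strand): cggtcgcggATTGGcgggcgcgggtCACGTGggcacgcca
The tandem element was matched once in TXNIP, at -88 from the start, with CCAAT boxes at -140 and -105. It matched 20 of 35116 windows of all genes (0.057%) and no other window of the 7 genes. The pattern fixes most bases of both sites and the spacer length, so elements with less exact sites would be missed. ARRDC4 held 1 E-box, at -210, and 3 CCAAT boxes, and MLX held 1 E-box, at -50. The E-box occurred in 7.26% of all windows and CCAAT in 34.6%. ARRDC1, ARRDC2, ARRDC3 and MLXIP had neither the E-box nor the tandem in their windows.

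Library totals ranged from 16971454 to 18005318 estimated counts. CRIP1, the targeted gene, had 127, 129 and 134 TPM in the shCRIP1 libraries, against 2791, 3327 and 3174 TPM in the shScramble libraries (log2 fold change -4.71, SE 0.06, adjusted p = 6.15e-22, edgeR quasi-likelihood test). TPM is a transcript level per gene length, scaled so that every library has an equal total. In bulk RNA, a change in the share of cells of a kind and a change in RNA per cell cannot be told apart. The exact two-sided permutation p of these 6 values was 0.1, and no smaller one is possible with 3 against 3. Of 12612 genes tested with edgeR, 9783 (77.6%) passed an adjusted p under 0.05, 39.4% as higher and 38.1% as lower in shCRIP1. With limma on log2(TPM + 1) the calls were 5531 higher and 3482 lower, against 4974 and 4809 on counts, and the median log2 fold change of all genes was 0.12 there, against 0.01 on counts. With a GC trend removed from each library, the calls were 4280 higher and 5664 lower, and the median was -0.08. Small changes are therefore read against those medians. The libraries also differed in markers of other cell types. Of 11 tested erythroid genes, 11 rose and 0 fell, their summed level was 738 to 747 TPM in shCRIP1 and 0.15 to 0.23 TPM in shScramble, and HBG2 (185 ± 5.22 TPM) and HBG1 (163.5 ± 11.7 TPM; SD, n = 3) had 0 counts in shScramble, as did 12 of the 13 listed genes. Of the 11 tested, 10 had 0 shScramble counts and KLF1 had 8. They passed the filter on low counts only through shCRIP1 and could not have been called lower, so only their levels are read. The same holds in the counts below for the epithelial markers KRT19 (0 shScramble counts) and KRT18 (22). It also holds for the myeloid markers CD33 (2) and LYZ (16) and the fibroblast marker COL1A2 (0). The fibroblast marker COL1A1 passed only through shScramble (8 shCRIP1 counts) and could not have been called higher. HBG1 and HBG2 are near-identical, so the split between them is uncertain. Epithelial markers rose in 5 of 5 tested genes (summed 84.0 to 90.1 TPM in shCRIP1, 10.3 to 13.4 TPM in shScramble). Myeloid markers rose in 2 of 2 (6.6 to 7.32 TPM in shCRIP1, 0.48 to 0.71 TPM in shScramble), fibroblast markers rose in 1 and fell in 2 of 3 (5.34 to 6.27 TPM in shCRIP1, 7.05 to 7.72 TPM in shScramble), and 0 of 7 T and NK cell markers passed the filter on low counts (1.64 to 2.34 TPM in shCRIP1, 0.51 to 0.79 TPM in shScramble). Plasma cell markers were present in both groups. Their sum was 3797 to 4054 TPM in shCRIP1 and 8420 to 8860 TPM in shScramble, with 3 higher and 6 lower of 9 tested. Most of the difference in the sum was JCHAIN, at 1789 ± 158 TPM in shCRIP1 and 6443 ± 223 TPM in shScramble. The 4 of smallest adjusted p all fell: JCHAIN (log2 fold change -1.99, SE 0.04), TNFRSF13B (-3.26, SE 0.10), MZB1 (-1.21, SE 0.05) and PRDM1 (-0.95, SE 0.04). TNFRSF17, the receptor BCMA, named after its value was seen, was 1 of the 3 that rose. It stood at 1032 ± 38.5 TPM in shCRIP1 and 761 ± 9.32 TPM in shScramble (SD, n = 3 each). The part of these markers in the results below was not tested.

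TXNIP had the largest difference of the 7 genes, and ARRDC4, its relative in glucose sensing, the next largest. All 7 genes passed the filter on low counts and 7 passed the threshold of the fit (5 higher, 2 lower), against 77.6% of all tested genes, and 2 of them were at least 2-fold higher, against 10.0% of all tested genes, and 0 at least 2-fold lower, against 8.06%. The median log2 fold change of the 7 was 0.43. Because the genes were proposed with this contrast known, nothing is read from these counts.

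TXNIP (NCBI gene 10628; chromosome 1, 145992435 to 145996600, minus strand, GENCODE 29 on GRCh38) had 61.9, 57.1 and 61.8 TPM in the shCRIP1 libraries, against 8.34, 7.43 and 7.80 TPM in the shScramble libraries. Every shCRIP1 library was above every shScramble library, and within a group the values lay close together. The reads behind them were 1607, 1532 and 1583 estimated counts in shCRIP1 and 219, 197 and 202 in shScramble. The fitted log2 fold change on counts was 2.80 (SE 0.06), or 6.96-fold, and 2.78% of tested genes had a higher one. This is the gene with the tandem element shown above.

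ARRDC4 (NCBI gene 91947; chromosome 15, 97960698 to 97973838, plus strand) encodes an alpha-arrestin that, like TXNIP, restrains glucose uptake. It was the least abundant of the family, with 2.43, 2.31 and 2.58 TPM in the shCRIP1 libraries, against 0.58, 0.52 and 0.43 TPM in the shScramble libraries. The groups did not overlap. Its estimated counts were only 91, 89 and 95 in shCRIP1 and 22, 20 and 16 in shScramble, so its fold change is the least precise of the 7. The fitted log2 fold change was 2.11 (SE 0.18), and 3.85% of tested genes had a higher one. On log2(TPM + 1) it was 1.19 and on log2(FPKM + 1) 0.87, where adding 1 to values this low shrinks the fold, and with a pseudocount of 0.1 on TPM it was 2.06.

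**Figure D1:**
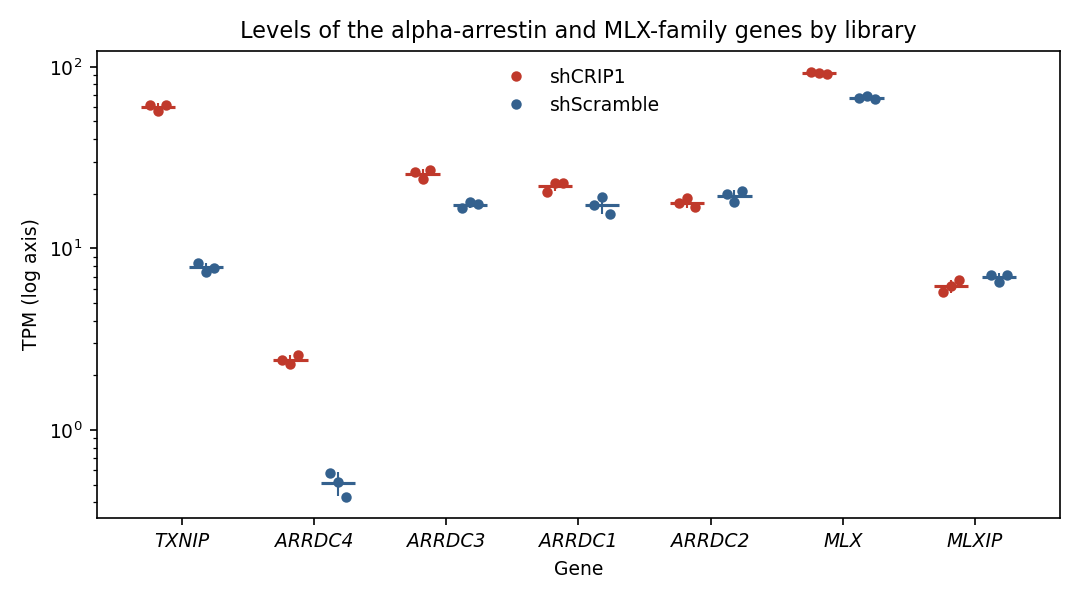
TPM on a log axis for each of the 7 genes, with 3 shCRIP1 libraries (red) left of 3 shScramble libraries (blue); points are libraries, horizontal lines means and vertical lines SDs. TXNIP averaged 60.3 TPM in shCRIP1 and 7.86 TPM in shScramble, ARRDC4 2.44 TPM in shCRIP1 and 0.51 TPM in shScramble, and the ranges of ARRDC2 and MLXIP overlapped between the groups.

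ARRDC3 and ARRDC1 differed much less. ARRDC3 (NCBI gene 57561; chromosome 5, 91368724 to 91383359, minus strand) acts on beta-adrenergic receptors and integrins and is known as a metabolic regulator. It had 26.3, 24.0 and 26.9 TPM in the shCRIP1 libraries, against 16.6, 18.1 and 17.6 TPM in the shScramble libraries, without overlap. The fitted log2 fold change was 0.43 (SE 0.05), and 0.20 with the GC trend of each library removed. An antisense-strand gene, ARRDC3-AS1, overlaps it in GENCODE 29, and no strand setting is given for the counting.

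ARRDC1 (NCBI gene 92714; chromosome 9, 137605654 to 137615360, plus strand) recruits the ESCRT protein TSG101 to the plasma membrane and drives budding of small vesicles. Its levels were 20.6, 23.0 and 23.0 TPM in the shCRIP1 libraries, against 17.3, 19.1 and 15.5 TPM in the shScramble libraries. The groups did not overlap, although the lowest shCRIP1 and the highest shScramble library were close. Counts and per-length levels disagreed in size for this gene. The fitted log2 fold change on counts was 0.57 (SE 0.08), whereas it was 0.34 on log2(TPM + 1) and 0.29 on log2(FPKM + 1). The gene length implied by the deposited count and FPKM was 2219, 2227 and 2079 bases in the shCRIP1 libraries, against 1722, 1676 and 1732 bases in the shScramble libraries, which do not overlap. The ratio of the group means was 1.27, and 0.277% of 8306 genes with a mean of at least 5 FPKM had a higher ratio (median of all 1.00). In the other 6 members it lay between 0.998 and 1.01. Isoform shares were not analysed here. ARRDC1-AS1, on the opposite strand, and 1 unnamed transcript gene on the same strand overlap ARRDC1 and were not analysed here.

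ARRDC2 (NCBI gene 27106; chromosome 19, 18001132 to 18014102, plus strand), another PPxY-bearing adaptor of the family, was the only alpha-arrestin with a negative fold change under the settings tried. It had 17.7, 19.0 and 16.8 TPM in the shCRIP1 libraries, against 19.8, 18.02 and 20.7 TPM in the shScramble libraries, and shCRIP1 replicate 2 lay above shScramble replicate 2, so the groups overlapped. The fitted log2 fold change on counts was -0.26 (SE 0.07), and -0.12 on log2(TPM + 1). A gene model without a gene name on the opposite strand overlaps it and was not analysed here.

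TXNIP also made up a different share of the family. The summed level of the 5 alpha-arrestins was 128 ± 2.89 TPM in shCRIP1 and 62.6 ± 0.59 TPM in shScramble (SD, n = 3 each). TXNIP made up 45.6% to 48.0% of that sum in the shCRIP1 libraries, against 11.8% to 13.3% in the shScramble libraries. Without TXNIP the sums were 68.2 ± 1.18 TPM in shCRIP1 and 54.7 ± 0.86 TPM in shScramble.

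**Figure D2:**
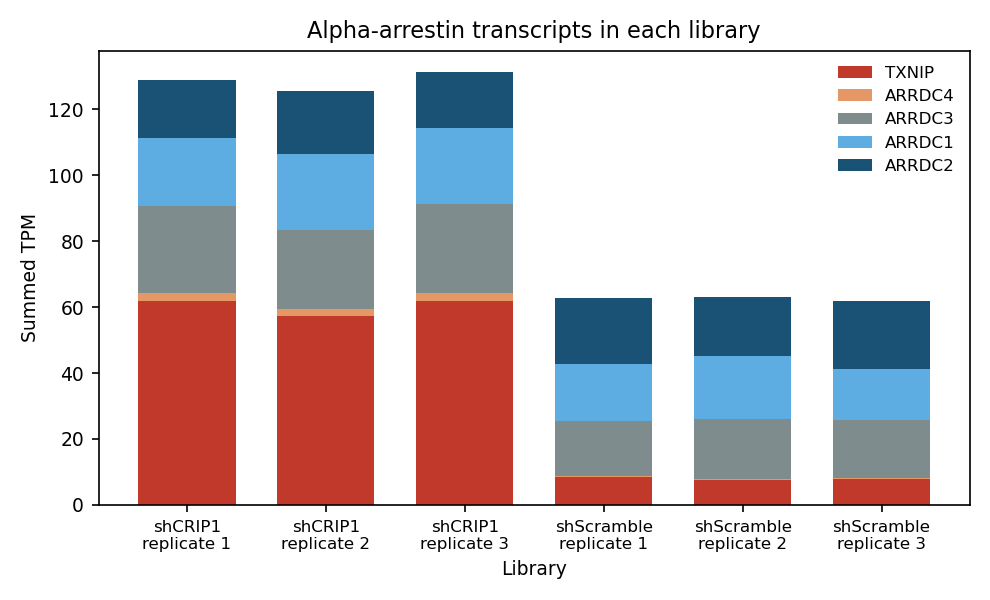
Stacked bars of the TPM of the 5 alpha-arrestins in each library, shCRIP1 left and shScramble right; bar height is their sum. TXNIP (red) fills 45.6% to 48.0% of the shCRIP1 bars and 11.8% to 13.3% of the shScramble bars, and ARRDC4 is a thin band in all.

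The 2 transcription factors had small fold changes of opposite sign. MLX (NCBI gene 6945; chromosome 17, 42567068 to 42573239, plus strand), the shared partner of MondoA and ChREBP, had 93.6, 92.3 and 91.7 TPM in the shCRIP1 libraries, against 67.0, 68.9 and 66.5 TPM in the shScramble libraries. The groups were well apart, and the fitted log2 fold change was 0.32 (SE 0.04), or 0.45 on log2(TPM + 1). MLX overlaps PSMC3IP on the opposite strand, and its estimated counts were not whole. Without a strand setting, reads from the stretch that the 2 genes share cannot be told apart. PSMC3IP, named after its value was seen, stood at 64.6 ± 4.4 TPM in shCRIP1 and 35.2 ± 1.53 TPM in shScramble (SD, n = 3 each), and how much it contributed to MLX was not tested.

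MLXIP (NCBI gene 22877; chromosome 12, 122078722 to 122147347, plus strand), which encodes MondoA itself, had 5.72, 6.21 and 6.74 TPM in the shCRIP1 libraries, against 7.18, 6.55 and 7.12 TPM in the shScramble libraries. shCRIP1 replicate 3 exceeded shScramble replicate 2, so the groups overlapped. The fitted log2 fold change was -0.29 (SE 0.06), and -0.14 on log2(TPM + 1). The ratio of MLX to MLXIP on the TPM scale was 14.9 ± 1.39 in shCRIP1 and 9.73 ± 0.68 in shScramble (SD, n = 3 each).

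The order of the levels on the TPM scale differed between the groups, with TXNIP in place 2 of 7 in shCRIP1 and 5 of 7 in shScramble. In shCRIP1 it ran MLX, TXNIP, ARRDC3, ARRDC1, ARRDC2, MLXIP and ARRDC4, and the ranges of neighbours did not overlap. In shScramble it ran MLX, ARRDC2, ARRDC3, ARRDC1, TXNIP, MLXIP and ARRDC4, where ARRDC2, ARRDC3 and ARRDC1 (means of 19.5, 17.4 and 17.3 TPM) had overlapping ranges. TXNIP was above 83.9% of the genes of the table in shCRIP1 and above 53.2% in shScramble, and MLX above 89.3% in shCRIP1 and 86.3% in shScramble.

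**Figure D3:**
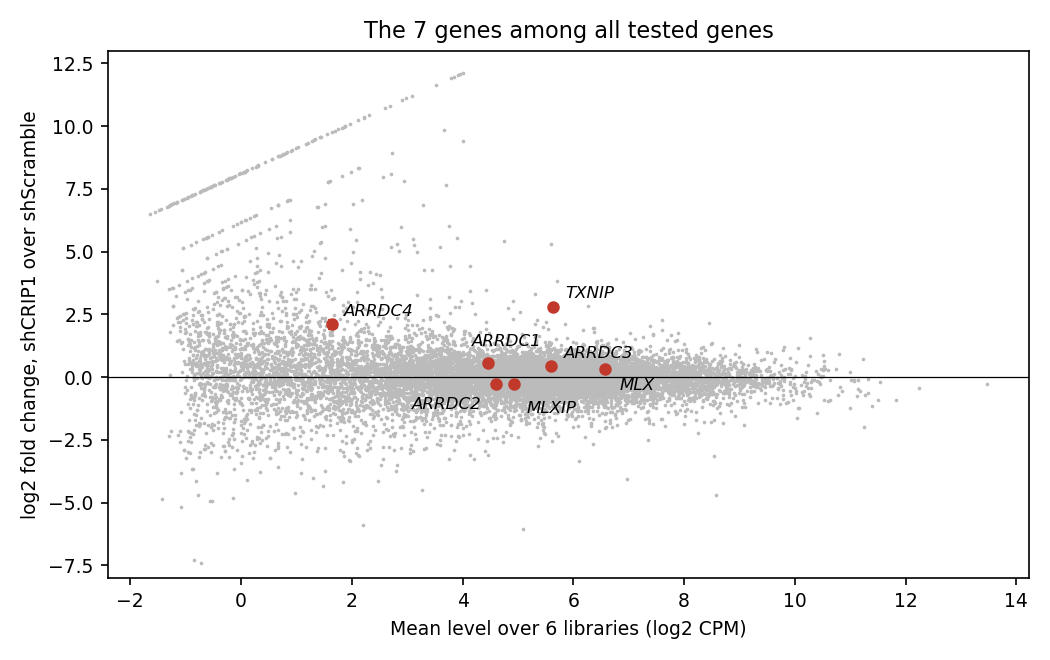
Log2 fold change, shCRIP1 over shScramble, against mean level in log2 CPM (counts scaled to library totals) for all 12612 tested genes (grey), with the 7 genes in red and SEs as bars where larger than the point. TXNIP at 2.80 and ARRDC4 at 2.11 have 2.78% and 3.85% of tested genes above them, and the other 5 lie between -0.29 and 0.57, within the bulk; the slanted rows at the top are genes with 0 or few shScramble counts.

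The genes whose profile was most like that of TXNIP were ranked by the root mean square difference of centred log2 CPM over the 6 libraries, among 9113 genes of at least 10 CPM. The 5 nearest were CDKN2D, a cyclin-dependent kinase inhibitor (0.05), TRPM8, a cation channel (0.09), BEX4 (0.10), ACTA2, smooth muscle actin (0.11), and SNTB1, a syntrophin (0.11). CDKN2D had 53.3 ± 2.33 TPM in shCRIP1 and 6.93 ± 0.43 TPM in shScramble, close to TXNIP also in level. The nearest to ARRDC4 were GTPBP2, REXO5, MEF2C, PLAAT4 and TLR4, at 0.12 to 0.13. With 2 groups of 3 libraries, this likeness reflects mainly the size of the group difference.

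Genes linked to the supply of glucose 6-phosphate, the signal that MondoA reads, changed in both directions. Of 9 tested genes of glucose uptake and phosphorylation, out of 14 in the table, 5 rose and 4 fell, against 39.4% higher and 38.1% lower of all tested genes (median log2 fold change 0.13, against 0.01 over all tested genes). These shares and this median over all genes are the background for each list that follows, and no list was tested as a set. Splits under other settings have the background of their own fit. With the GC trend removed it was 4280 higher and 5664 lower (median -0.08), and on log2(TPM + 1) 5531 and 3482 (median 0.12). SLC2A1, the transporter GLUT1, rose to 11.8 ± 1.40 TPM in shCRIP1, against 5.96 ± 0.31 TPM in shScramble (log2 fold change 0.85, SE 0.09, adjusted p = 5.66e-08, edgeR). SLC2A3, GLUT3, rose as well (8.61 ± 0.46 TPM in shCRIP1 and 5.02 ± 0.23 TPM in shScramble; 0.64, SE 0.08). The hexokinases diverged, with HK1 higher (26.4 ± 0.28 TPM in shCRIP1 and 12.8 ± 0.51 TPM in shScramble; 0.92, SE 0.05) and HK2 lower (16.7 ± 0.76 TPM in shCRIP1 and 25.1 ± 1.16 TPM in shScramble; -0.73, SE 0.05). GPI, the isomerase that uses glucose 6-phosphate, fell (-1.11, SE 0.04), as did the intracellular transporter SLC2A8 (-0.65, SE 0.06). The counts of this list also include SLC2A13, a myo-inositol transporter, as higher (0.46, SE 0.15). SLC2A5, a fructose transporter, is included as lower, with 2 estimated counts over the shCRIP1 and 66 over the shScramble libraries. It passed the filter on low counts only through shScramble and could not have been called higher. G6PC3, a glucose 6-phosphatase named after its value was seen, is included as higher, close to the threshold (0.13, SE 0.06, adjusted p = 0.048, edgeR). The split is therefore not one of glucose supply alone. With the GC trend removed, and also without shCRIP1 replicate 3, 3 rose and 4 fell.

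Of 10 tested genes listed as other targets of MondoA and ChREBP, 2 rose and 8 fell, against 39.4% higher and 38.1% lower of all tested genes, with a median of -0.53, against 0.01. The lipogenic genes FASN (27.3 ± 1.79 TPM in shCRIP1 and 69.4 ± 1.89 TPM in shScramble; -1.48, SE 0.04, adjusted p = 5.57e-17, edgeR) and ACLY (-0.83, SE 0.03) fell, as did RGS16, a regulator of G protein signalling (-0.63, SE 0.04), and HK2. The 2 that rose were KLF10, a transcription factor named after its value was seen (125 ± 1.85 TPM in shCRIP1 and 92.5 ± 2.15 TPM in shScramble; 0.30, SE 0.04), and PKLR, the liver and red cell pyruvate kinase. PKLR had 193 estimated counts over the shCRIP1 libraries and 1 over the shScramble libraries, a ratio of 187 (95% exact binomial interval 33.2 to 7428, counting error only), and it rose beside the erythroid genes (summed 738 to 747 TPM in shCRIP1, 0.15 to 0.23 TPM in shScramble). PKLR passed the filter on low counts only through shCRIP1 and could not have been called lower. Its call as higher therefore carries no weight in the split. FASN, ACLY, ELOVL6 and ACACA are also targets of the sterol regulator SREBP.

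MLX can also pair with MNT, MXD1, MXD4 and ChREBP. MXD1 rose (20.3 ± 1.2 TPM in shCRIP1 and 11.9 ± 0.45 TPM in shScramble; 0.64, SE 0.06, adjusted p = 1.47e-09, edgeR) and MXD4 fell (11.3 ± 0.86 TPM in shCRIP1 and 15.6 ± 0.39 TPM in shScramble; -0.60, SE 0.07). MNT, at 7.23 TPM in shCRIP1 and 6.09 TPM in shScramble, did not pass the test (0.18, SE 0.08, adjusted p = 0.0566), and passed it as higher under 9 of the 16 alternatives. MLXIPL, which encodes ChREBP, the other glucose-sensing factor, was barely detected. It had 15 estimated counts over the shCRIP1 libraries and 0 over the shScramble libraries. With the shScramble group set to 3 counts it was 4.85-fold higher in shCRIP1, and it did not pass the filter on low counts.

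The thioredoxin system, which TXNIP binds and inhibits, had 14 tested genes. Of these 2 rose, 8 fell and 4 did not pass, so that 10 of 14 were called, near the 77.6% of all tested genes (39.4% higher, 38.1% lower). Their median was -0.32, and the split was 4 higher and 8 lower on log2(TPM + 1). TXN, thioredoxin itself, fell to 777 ± 52.8 TPM in shCRIP1, against 1263 ± 58.7 TPM in shScramble (-0.84, SE 0.04, adjusted p = 2.47e-13, edgeR). PRDX1, a peroxidase that thioredoxin recharges, fell to 616 ± 41.6 TPM in shCRIP1, against 2121 ± 133 TPM in shScramble (-1.92, SE 0.05). PRDX2 (-0.74, SE 0.06) and MSRB1 (-0.84, SE 0.08) fell too. TXNRD1, the cytosolic thioredoxin reductase, rose (582 ± 24.2 TPM in shCRIP1 and 413 ± 3.58 TPM in shScramble; 0.35, SE 0.03), and so did PRDX5 (0.26, SE 0.04), both named after their values were seen.

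**Figure D4:**
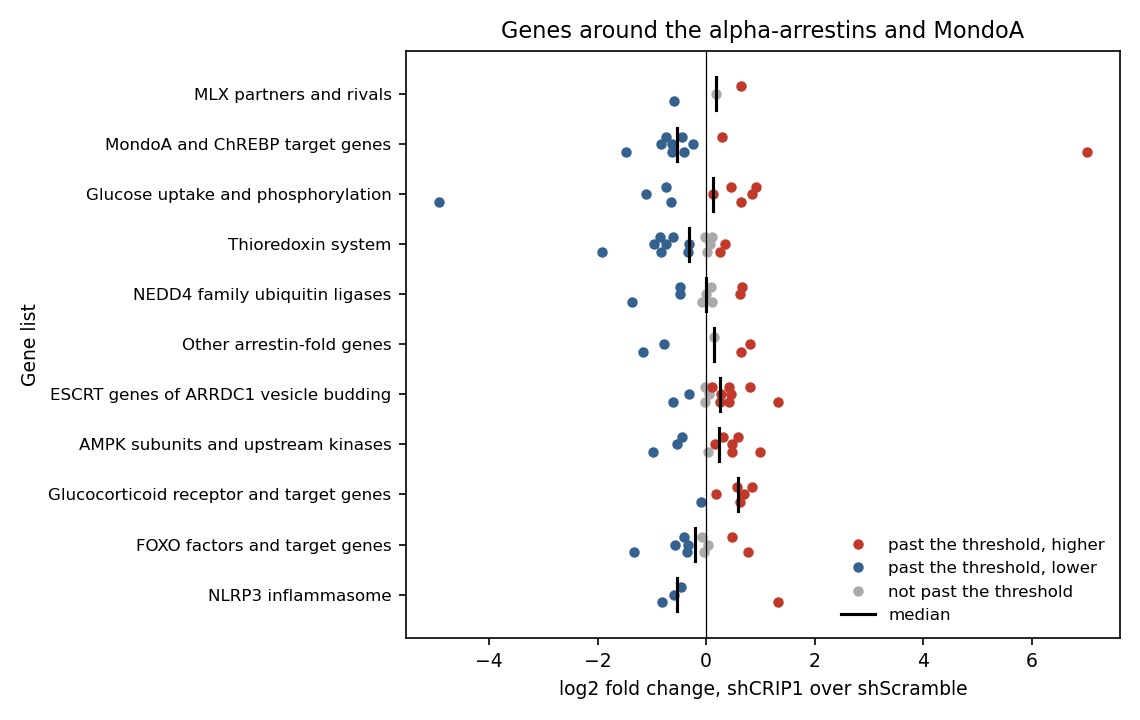
Log2 fold change, shCRIP1 over shScramble, of each tested gene in 11 gene lists (rows); red points are past the threshold as higher, blue as lower, grey not past it, and black bars are list medians. Blue points make up 8 of 10 in the MondoA and ChREBP targets and 8 of 14 in the thioredoxin system, against 38.1% of all tested genes, and the point at 7.02 is PKLR, with 1 shScramble count.

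Of the NEDD4 family ligases that alpha-arrestins recruit, 9 were tested, 2 rose, 3 fell and 4 did not pass (median 0.01). The 5 of 9 called lie below the 77.6% of all tested genes (39.4% higher, 38.1% lower), a difference that was not tested. WWP2 (42.2 ± 2.43 TPM in shCRIP1 and 23.5 ± 1.32 TPM in shScramble; 0.67, SE 0.05) and NEDD4 (0.63, SE 0.06) rose, and WWP1 (-0.49, SE 0.05) and HECW1 (-1.36, SE 0.19) fell. ITCH, which ubiquitinates TXNIP, was at 51.7 ± 2.60 TPM in shCRIP1 and 46.7 ± 1.87 TPM in shScramble (0.01, SE 0.04, adjusted p = 0.894, edgeR), and with the GC trend removed it passed as lower (-0.20). NEDD4L was at 9.06 TPM in shCRIP1 and 8.68 TPM in shScramble (-0.07, SE 0.05, adjusted p = 0.209), with a positive sign on log2(TPM + 1) (0.06). Removing the GC trend gave 2 higher and 5 lower in this list, and 3 and 2 on log2(TPM + 1).

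The ESCRT genes are the machinery ARRDC1 uses to bud vesicles. Of 13 tested, 8 rose, 2 fell and 3 did not pass (median 0.26), and removing the GC trend gave 6 and 3. The 10 of 13 called are close to the 77.6% of all tested genes, of which 39.4% were higher and 38.1% lower. TSG101, the direct partner of ARRDC1, rose to 156 ± 8.87 TPM in shCRIP1, against 103 ± 3.42 TPM in shScramble (0.46, SE 0.05, adjusted p = 1.68e-08, edgeR). CHMP4A (0.81, SE 0.05), VPS37C (1.33, SE 0.10) and VPS4B, the ATPase that disassembles the complex (0.43, SE 0.04), rose as well. Among other arrestin-fold genes, 2 of 5 rose and 2 fell, against 39.4% and 38.1% of all tested genes (median 0.15). The retromer genes VPS26A (57.4 ± 3.64 TPM in shCRIP1 and 30.0 ± 0.20 TPM in shScramble; 0.80, SE 0.05) and VPS26B (-0.78, SE 0.05) went opposite ways, VPS26C rose (0.64, SE 0.04), and ARRB1, beta-arrestin 1, fell (1.24 ± 0.21 TPM in shCRIP1 and 2.53 ± 0.06 TPM in shScramble; -1.16, SE 0.12).

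Known regulators of TXNIP and its relatives were also followed. AMPK phosphorylates TXNIP and marks it for degradation, and of 10 tested genes of AMPK and its upstream kinases 6 rose and 3 fell, against 39.4% and 38.1% of all tested genes (median 0.24), or 5 and 5 with the GC trend removed. PRKAA1, 1 of the 2 catalytic subunits, was 29 ± 0.58 TPM in shCRIP1 and 23.6 ± 0.56 TPM in shScramble (0.17, SE 0.04, adjusted p = 0.00147, edgeR). With the GC trend removed its sign turned (-0.10), near the median of all tested genes in that fit (-0.08). PRKAA2, the other one, named after its value was seen, was low but rose to 0.78 ± 0.08 TPM in shCRIP1, against 0.35 ± 0.03 TPM in shScramble (0.99, SE 0.17). PRKAB1 rose (0.58, SE 0.07), while PRKAG2 (-0.99, SE 0.07), STK11, the kinase LKB1 (-0.54, SE 0.05), and CAMKK2 (-0.44, SE 0.04) fell.

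Of 6 tested genes of the glucocorticoid receptor list, 5 rose and 1 fell, against 39.4% higher and 38.1% lower of all tested genes (median 0.60), or 5 and 0 on log2(TPM + 1). NR3C1, the receptor, rose to 134 ± 5.29 TPM in shCRIP1, against 75.02 ± 2.46 TPM in shScramble (0.70, SE 0.04, adjusted p = 3.82e-13, edgeR). The listed targets TSC22D3 (690 ± 9.15 TPM in shCRIP1 and 409 ± 9.70 TPM in shScramble; 0.62, SE 0.03), PER1 (0.84, SE 0.08) and KLF9 (0.57, SE 0.06) rose as well. The list is short and does not cover all targets. SGK1, a target outside the list named after its value was seen, fell (-1.68, SE 0.05). FKBP5, named after its value was seen, was the 1 of the list that fell (-0.10, SE 0.03), with a positive sign on log2(TPM + 1) (0.03).

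FOXO factors and targets fell in 5 and rose in 2 of 10 tested genes, against 38.1% lower and 39.4% higher of all tested genes (median -0.21), or 1 higher and 5 lower on log2(FPKM + 1). SESN3 (-1.33, SE 0.04), FOXO3 (-0.57, SE 0.03), CDKN1B (-0.36, SE 0.03) and FOXO1 (-0.40, SE 0.06) fell. Of the NLRP3 inflammasome, which TXNIP can bind, 4 genes were tested (2 higher and 3 lower on log2(TPM + 1)), of which CASP1 rose (35.2 ± 0.86 TPM in shCRIP1 and 12.0 ± 0.51 TPM in shScramble; 1.33, SE 0.08) and NEK7, GSDMD and PYCARD fell (-0.58, -0.82 and -0.47; SE 0.04, 0.11 and 0.09), where 39.4% of all tested genes rose and 38.1% fell. IL18, a cytokine that CASP1 matures, named after its value was seen, had 37 estimated counts over the shCRIP1 libraries and 0 over the shScramble libraries. With the shScramble group set to 3 counts it was 12.0-fold higher in shCRIP1, and it did not pass the filter on low counts. IL18 is the added higher gene on log2(TPM + 1), a fit that it entered only through shCRIP1. NLRP3 itself had 6 estimated counts in each group and was not tested. For all 11 lists the same libraries differed in the erythroid sum given above, whose part was not tested.

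**Figure D5:**
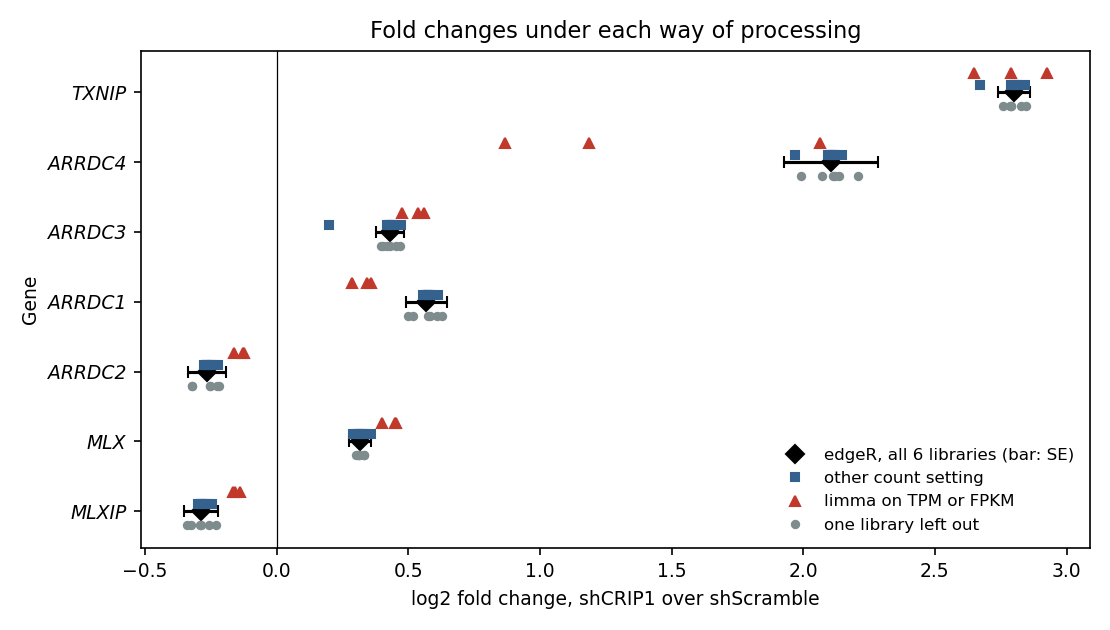
Log2 fold change, shCRIP1 over shScramble, of the 7 genes (rows) under each way of processing; black diamonds with SE bars are the edgeR fit on all 6 libraries, blue squares other settings on counts, red triangles limma on log2 TPM or FPKM, and grey points fits without 1 library. No gene crosses 0 under the settings shown, TXNIP stays between 2.65 and 2.92, and ARRDC4 falls to 0.87 to 1.19 where a pseudocount of 1 is added.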

How the data were processed

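The authors deposited 1 table that gives each gene's estimated count, FPKM and TPM in every library, per the file headers. RSEM 1.2.8, Bowtie2 2.2.5, HISAT2 2.1.0 and the build GRCh38.p13 appear in the submitters' processing notes, without roles. The annotation and strand setting are not given in the sources used here. Groups came from the sample titles.

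Estimated counts were rounded and tested with edgeR 4.0.16 (R 4.3.3): filterByExpr at a minimum count of 10, TMM scaling, group only, quasi-likelihood F test, Benjamini-Hochberg adjustment over 12612 genes. SE is the log2 fold change over the square root of F. On simulated data for this comparison (12449 genes), recovery was 53 of 75 genes at a 1.25-fold change, 47 of 60 at 1.5-fold and 61 of 62 at 2-fold, with 4 false calls. The simulation changed only a small part of the genes and gave all genes the same dispersion, whereas most tested genes were called in the data. These rates therefore check the code and need not hold for the real comparison. Libraries of a group differed by more than sampling noise (mean chi-square per gene 1.62 to 4.15). The members and the 17 gene lists were chosen with earlier results of these data known, the lists by textbook role. The lists' named genes are the 4 of smallest adjusted p and a short fixed set. Alternatives are DESeq2 1.42.0, limma 3.58.1, other scaling and filters, a replicate block, each library left out and, added after the data were seen, removal of a GC trend (loess, span 0.5; 99.5% of genes had a GC value from GENCODE 29). Intervals cover counting error only. Floors set a group without counts to 3 counts and take the other group's counts as observed, so they are not confidence limits.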

Additional observations from a re-analysis of the deposited data

How the results depend on the processing

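Of the 7 genes, which were chosen with this contrast known, 2 were past the threshold as lower in edgeR and 0 on log2(TPM + 1) and log2(TPM + 0.1), and nothing is read from these counts. The count of genes past the threshold ran from 8580 to 10306. MLX partners had 2 higher, as against 1, with upper-quartile scaling, no filter, at least 50 counts, limma on TPM or FPKM, the replicate block, the GC trend removed, and 1 to 2 without 1 library (2 without shCRIP1 replicate 3 or shScramble replicate 1). Higher thioredoxin genes were 4 on TPM, and NLRP3 list genes 2 on TPM and with no filter. The added NLRP3 list gene is IL18, with 0 shScramble counts, which entered those fits only through shCRIP1. Higher FOXO genes were 1 at 50 counts and on TPM and FPKM, and lower glucocorticoid genes 0 with upper-quartile scaling, TPM and FPKM. Higher myeloid genes were 0 at 50 counts, lower fibroblast genes 1 on FPKM, and higher T and NK genes 1 with no filter and on TPM, and 0 to 1 without 1 library (1 without shCRIP1 or shScramble replicate 1). With the GC trend removed, higher glucose genes were 3, lower NEDD4 family genes 5 and lower AMPK genes 5; without 1 library, higher glucose genes were 3 to 5 (3 without shCRIP1 replicate 3). Signs turned for ITCH with no filter (-0.0050) and the GC trend removed (-0.20), and between -0.028 and 0.041 without 1 library, NEDD4L on log2(TPM + 1), log2(TPM + 0.1) and log2(FPKM + 1) (0.056, 0.062 and 0.012), FKBP5 on both TPM scales (0.0348 and 0.0350) and PRKAA1 with the GC trend removed (-0.10). Replicate numbers did not pair the libraries (correlations of same-numbered deviations 0.05, -0.01 and -0.01; 2 of 6 libraries correlated best with their own number), and the replicate block called 9816 genes. Low counts limit the precision for ARRDC4, and MLXIPL, IL18 and NLRP3 had too few to be tested in the main fit.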

Other observations

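The tandem element of the TXNIP promoter, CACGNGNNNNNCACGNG, a motif chosen after the data were seen, was matched in the windows of 15 tested genes, TXNIP included. Of these, 10 rose, 2 fell and 3 did not pass the test (median log2 fold change 0.31), against 39.5% higher and 38.2% lower of 10368 tested genes whose windows lack it (median 0.01). TXNIP, proposed with this contrast known, is 1 of the 10 and has the highest fold change of the 15 (2.80). Its part in the count therefore carries no weight. GFPT1, the enzyme that opens the hexosamine pathway of glucose use, rose to 115 ± 1.54 TPM in shCRIP1, against 47.8 ± 1.30 TPM in shScramble (SD, n = 3 each; log2 fold change 1.31, SE 0.04). MYL5 rose as well, from few reads (86 estimated counts over the shCRIP1 and 17 over the shScramble libraries). MYL5 passed the filter on low counts only through shCRIP1, so its part in the count carries no weight either. The 2 that fell were P4HA1, a collagen prolyl hydroxylase (14.99 ± 1.17 TPM in shCRIP1 and 22.6 ± 1.11 TPM in shScramble), and RAN, a nuclear transport GTPase (472 ± 20.04 TPM in shCRIP1 and 576 ± 26.0 TPM in shScramble). With 15 genes and no test of the list, this is a description. The plain E-box CACGTG, in the windows of 1326 tested genes, went with 39.4% higher and 39.0% lower calls (median 0.00).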
